A study of Mus musculus with 59 samples.

Results

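Spinal cord RNA of wild-type mice was compared between 4 weeks of age and the following 2 months of young adult life. The comparison held 6 of the study's 59 libraries: 4 libraries of 8 and 12 weeks were set against 2 libraries of 4 weeks, by age and genotype alone. At each age there was 1 female and 1 male library, and in each pair of values below the female stands first. The study as a whole read spinal cord (16 libraries) and sandwich co-cultures of glia and neurons (43 libraries) of wild-type mice and of mice labelled SOD1_G93A mutant, which carry a mutant human SOD1 and model motor neuron disease. Mutant cords of 4, 8 and 12 weeks (6 libraries) entered the model and so share in its estimate of spread, and those of 4 and 8 weeks also show the same step of age in other libraries. The 2 wild-type libraries of 17 weeks are a later point with no test. The wild-type cords carried no treatment that the labels name, and strain, litter and whether a library came from 1 animal or a pool are not given in the sources used here. P-values therefore measure the spread between these libraries, which may be partly technical.

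Oligodendrocytes are the cells that wrap axons of the central nervous system in myelin. They arise from precursors, pass through a short newly formed stage in which they lay down membrane at a high rate, and then keep up a finished sheath. Myelin is rich in cholesterol and in galactolipids with very long fatty acids, and because little cholesterol enters the nervous system from the blood, its cells make their own through the mevalonate and sterol pathway. In mice the bulk of spinal cord myelin is made in the first weeks after birth, so the ages read here lie on the late side of that period.

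Each of the 6 libraries held 22.8 to 34.1 M reads on genes, which were 77.5% to 80.8% of its total, and their scaling factors lay between 0.949 and 1.03. Libraries of 17 weeks had 51.3% and 67.5% of their total on genes, with factors of 0.675 and 0.898. Values are reads per length and library total, rescaled between libraries, and log2 changes are of that value plus 1, which understates the change of low genes. Both 4-week libraries stood apart in some genes. In the male, 33 entries were more than 2-fold above each of the other 11 libraries of the model, against 0 to 4 in any other library. Of these 33 entries 28 were shorter than 1000 bases (median 412, against 3342 over the genes tested and 3751 over those that fell). In the age comparison 0 of them were called, but entries picked for lying far above the female of the same age could hardly pass. Among them the respiratory chain subunit Ndufa4 read 269 and 998 at 4 weeks, 181 and 154 at 8 weeks, then 337 and 351 at 12 weeks. Another short gene high in that library was the metallothionein Mt1, at 147 and 923 at 4 weeks, 182 and 193 at 8 weeks, then 195 and 191 at 12 weeks. In the female, markers of Schwann cells, which myelinate peripheral nerve, were high. Of the 7 Schwann cell markers tested, 0 were called, and the summed list read 200.5 and 86.0 at 4 weeks against 84.9 to 123 at 8 and 12 weeks. Total counts and those of the myelin, newly formed oligodendrocyte and cholesterol lists are therefore given below with and without each of these 2 libraries. For the other lists, basement membrane among them, they are given with both libraries only.

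Between 4 weeks and the later ages 281 of 14459 genes passed (limma, adjusted p under 0.05), and most of them fell. Lower at 8 and 12 weeks were 218 genes, 1.51% of those tested, of which 198 were protein coding. Higher were 63 genes, 0.436% of those tested, of which 41 were protein coding. The genes that fell did so by a median of 0.61 on the log2 scale, and 25 of them by 1 or more. Those that rose did so by a median of 0.63, with 13 at 1 or more. In 217 of the 218 falling genes, all but Pttg1, and in all 63 rising genes the later libraries did not overlap the 4-week ones. Over all genes tested 13.7% lay wholly lower and 12.3% wholly higher, and the median log2 change was 0.00060.

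The number of calls changed with the libraries used, and the cause was not tested. With the 6 wild-type libraries alone 5 genes rose and 21 fell, and with values as deposited, not rescaled, 91 rose and 133 fell. Without the male 4-week library the counts were 6 and 23, and without the female 4-week library 75 and 203, of which 25 and 117 were among the 281 called. Leaving out the female or male of 8 weeks gave 22 and 87 or 17 and 110, and of 12 weeks 26 and 135 or 14 and 84. In each of these fits all 281 genes kept the sign of their change. This was close to fixed in advance, as the fits reuse the same libraries and nearly all these genes had ages without overlap.

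**Figure D1:**
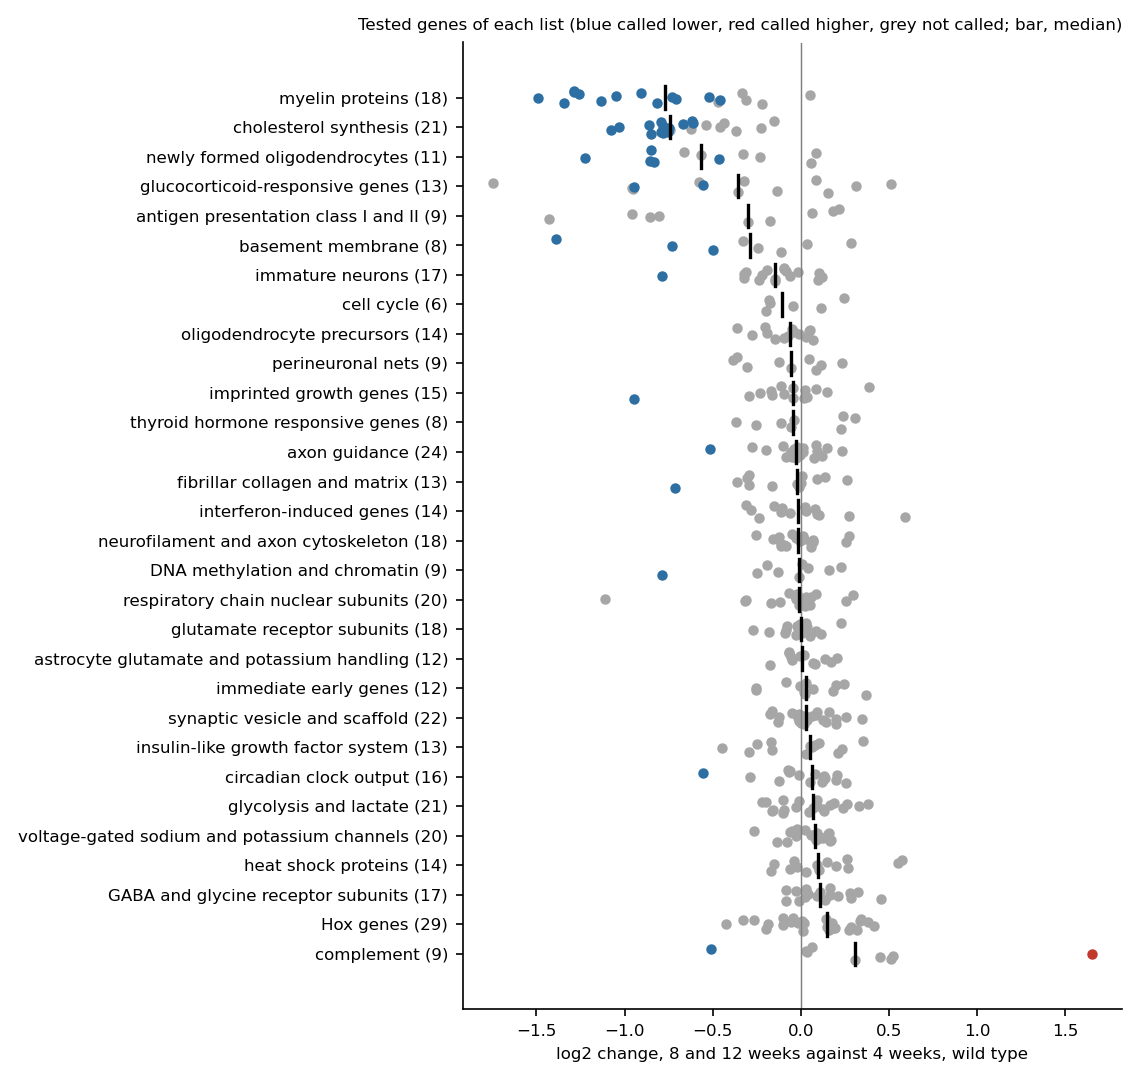
Log2 change of every tested gene of each process list between 4 weeks and the later ages in wild-type spinal cord (horizontal axis), with 1 point a gene, blue where called lower, red where called higher and grey where not called, and a bar at the list's median. The myelin, cholesterol synthesis and newly formed oligodendrocyte lists have medians of -0.77, -0.74 and -0.56, while those of the synaptic and glutamate receptor lists are 0.03 and 0.00.

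Genes for the proteins and lipids of myelin fell. In the myelin list 13 of 18 genes fell and 0 rose, where 1.51% of all genes tested fell. Later libraries lay wholly below the 4-week ones in 15 of 18, against 13.7% of all genes tested, and the median log2 change was -0.77. Mbp, which holds the cytoplasmic faces of the sheath together, read 2395 and 2749 at 4 weeks, 1747 and 1964 at 8 weeks, then 1289.9 and 1299 at 12 weeks and fell by 0.73 in log2 units (SE 0.09, adjusted p = 0.00592). Every later library was lower than both of 4 weeks, and those of 12 weeks were lower than those of 8 weeks. As a share of all reads on genes, the 18 genes took 7.02% and 7.27% at 4 weeks, 4.58% and 5.24% at 8 weeks and 3.75% and 3.50% at 12 weeks. In bulk tissue such a fall can reflect fewer cells of a type or less RNA per cell, which cannot be told apart.

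The steepest member was Mal (mm9 chr2:127458962-127482432), a proteolipid of compact myelin that takes part in sorting its membrane. It read 545 and 664 at 4 weeks, 245 and 279 at 8 weeks, then 183 and 165 at 12 weeks, and 156 and 162 at 17 weeks. The later libraries lay far below both of 4 weeks, without overlap, and Mal fell by 1.49 in log2 units (SE 0.11, adjusted p = 0.00225). Cldn11, which forms the tight junctions between the layers of the sheath, read 528 and 619 at 4 weeks, 241 and 297 at 8 weeks, then 187 and 192 at 12 weeks and fell by 1.34 in log2 units (SE 0.12, adjusted p = 0.00369). Tspan2, a tetraspanin of myelin, read 182 and 181 at 4 weeks, 79.1 and 81.9 at 8 weeks, then 68.6 and 66.6 at 12 weeks, with the libraries of each age close together, and fell by 1.29 in log2 units (SE 0.07, adjusted p = 0.000513). Opalin, a membrane protein found in central and not peripheral myelin, read 49.8 and 52.8 at 4 weeks, 19.2 and 20.3 at 8 weeks, then 21.2 and 22.7 at 12 weeks and fell by 1.26 in log2 units (SE 0.23, adjusted p = 0.035). Its level at 12 weeks was not below that at 8 weeks. Mog, a protein of the outermost layer, read 243 and 297 at 4 weeks, 146 and 156 at 8 weeks, then 117 and 105 at 12 weeks and fell by 1.05 in log2 units (SE 0.10, adjusted p = 0.00369).

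Some enzymes of lipid synthesis were among the genes that fell, though they were not a list of their own. Ugt8a, which makes galactosylceramide, read 299 and 339 at 4 weeks, 132 and 169 at 8 weeks, then 125 and 101 at 12 weeks and fell by 1.29 in log2 units (SE 0.16, adjusted p = 0.00732). Fa2h, which adds the hydroxyl group to the fatty acids of that lipid, read 124 and 134 at 4 weeks, 55.8 and 73.5 at 8 weeks, then 52.5 and 53.2 at 12 weeks and fell by 1.13 in log2 units (SE 0.11, adjusted p = 0.00369). In both genes every later library was below both 4-week libraries. Elovl1, which lengthens fatty acids to very long chains, read 33.2 and 39.6 at 4 weeks, 18.6 and 20.1 at 8 weeks, then 15.7 and 13.1 at 12 weeks and fell by 1.08 in log2 units (SE 0.10, adjusted p = 0.00369). Of related genes singled out after their values were seen, Gal3st1, which makes sulfatide, fell by 0.81, Cers2, the synthase of ceramides with very long chains, by 0.86, Elovl6 by 0.75 and Elovl7 by 0.67. Fatty acid synthase Fasn (-0.34, adjusted p = 0.0776) and the desaturase Scd2 (-0.29, adjusted p = 0.0911) were not called.

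The other 5 members of the myelin list did not pass. Among them the log2 change was -0.47 for Ermn, -0.34 for transferrin (Trf), -0.22 for aspartoacylase (Aspa) and 0.05 for Ndrg1. Adjusted p ran from 0.195 for Ermn to 0.808 for Ndrg1. Trf read 516 and 536 at 4 weeks, 393 and 429.5 at 8 weeks, then 493 and 362 at 12 weeks, so the 12-week female came close to the 4-week level. Carbonic anhydrase Car2, an oligodendrocyte enzyme singled out after its values were seen, was higher in all later libraries without passing, at 200.3 and 191 at 4 weeks, 236 and 273 at 8 weeks, then 239 and 246 at 12 weeks (0.34, adjusted p = 0.195). Not every gene of these cells that was measured fell.

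Counts in the myelin list followed the libraries. Without the male 4-week library 5 of 18 passed, with a median of -0.75, and without the female 10 of 18, with a median of -0.80. With wild-type libraries alone 5 passed, with a median of -0.77. The male library held a Schwann marker sum of 86.0, at the level of the 12-week libraries, and its summed myelin list was 11293, against 10725 in the female. Its Mbp and Mal values were above those of the female. What part Schwann cells had in the 4-week myelin values was not tested.

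**Figure D2:**
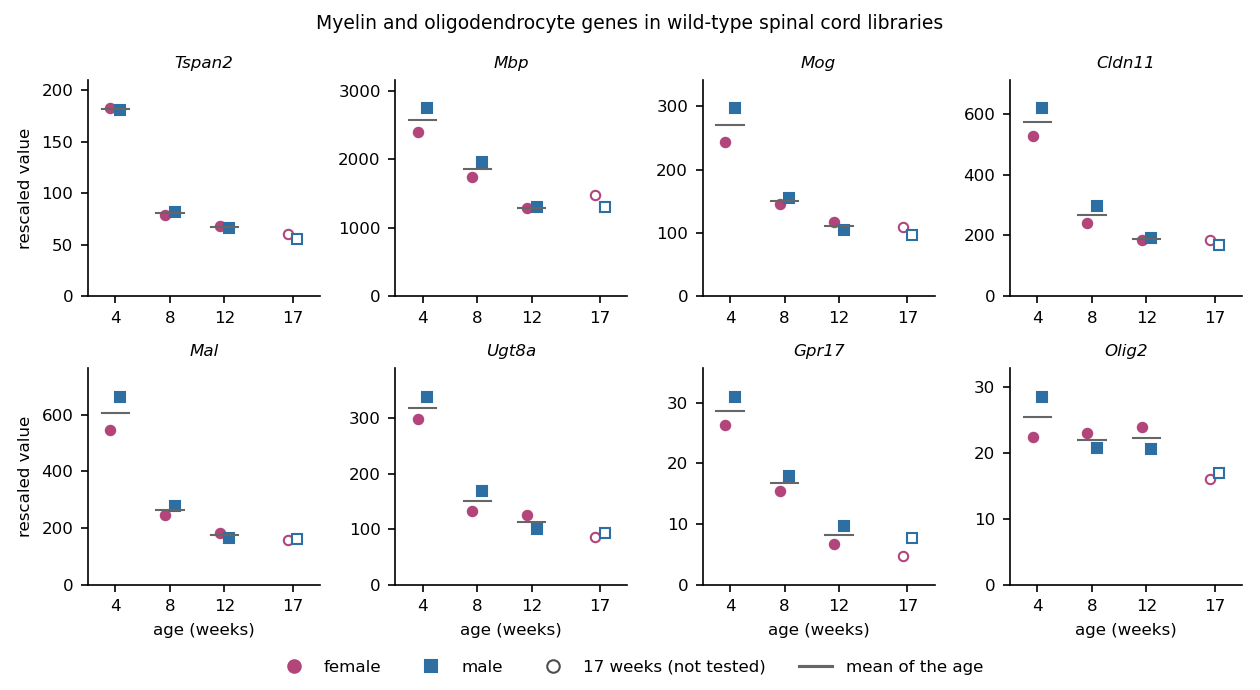
Rescaled value (vertical axis, from 0) by age in weeks (horizontal axis) for 6 myelin genes, the newly formed oligodendrocyte receptor Gpr17 and the lineage factor Olig2 in wild-type spinal cord, with 1 point a library (circle female, square male, open at 17 weeks, not tested) and a bar at the mean of each age. The 4-week libraries lie above all later ones for every gene but Olig2, and Gpr17 is lower at 12 than at 8 weeks, at 6.74 and 9.70 against 15.5 and 17.9.

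Genes of the newly formed stage fell in part, while no precursor gene passed, and the difference between these lists was not tested. In the newly formed list 5 of 11 genes fell and 0 rose, with a median of -0.56, where 1.51% of all genes tested fell. Sox4, also of this list and given further below, was not counted, as its symbol labels more than 1 entry. Gpr17, a receptor carried by cells that are about to myelinate, read 26.4 and 31 at 4 weeks, 15.5 and 17.9 at 8 weeks, then 6.74 and 9.7 at 12 weeks, and 4.75 and 7.73 at 17 weeks. It was lower at each later age, with a log2 difference of -0.95 between 12 and 8 weeks that did not pass on its own, and fell by 1.22 in log2 units (SE 0.14, adjusted p = 0.00545). Enpp6, a phosphodiesterase used as a mark of newly made oligodendrocytes, read 20.5 and 24.7 at 4 weeks, 11.8 and 14.9 at 8 weeks, then 12 and 9.77 at 12 weeks and fell by 0.85 in log2 units (SE 0.12, adjusted p = 0.0119). Bmp4, a secreted signal, was low throughout at 2.06 and 2.04 at 4 weeks, 0.976 and 1.39 at 8 weeks, then 0.317 and 0.391 at 12 weeks, and fell by 0.83 in log2 units (SE 0.10, adjusted p = 0.00612). All 3 had later libraries below both of 4 weeks. Sirt2, a deacetylase of myelinating cells, fell by 0.85 and the kinase Fyn by 0.47. Bcas1 (0.06), Nkx2-2 (0.09), Itpr2 (-0.23), Neu4 (-0.33), Rras2 (-0.66) and Lims2 (-0.56) were not called. Without the male 4-week library 0 of the 11 passed, without the female 5, and with wild-type libraries alone 1.

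Among 14 precursor genes tested 0 were called, and the median was -0.06. The receptor Pdgfra, which defines precursors, read 8.89 and 8.27 at 4 weeks, with the male of 8 weeks above both and the male of 12 weeks below both at 6.94 (-0.04, adjusted p = 0.902), and the proteoglycan Cspg4 (NG2) read 2.47 and 2.25 at 4 weeks, 2.18 and 2.43 at 8 weeks, then 1.71 and 1.87 at 12 weeks (-0.15, adjusted p = 0.408). The groups overlapped in Pdgfra and in Cspg4. Among transcription factors of the whole lineage, Olig1 was at -0.01, Olig2 at -0.19, Sox10 at -0.07 and Myrf, which switches on myelin genes, at -0.25, and 0 of these 4 passed. Olig2 read 22.4 and 28.5 at 4 weeks, 23.1 and 20.8 at 8 weeks, then 24 and 20.5 at 12 weeks. One factor that did pass was Zfp488, a repressor tied to oligodendrocyte differentiation and singled out here after its values were seen, at 2.42 and 2.82 at 4 weeks, 1.03 and 1.31 at 8 weeks, then 0.697 and 0.803 at 12 weeks, and it fell by 0.89 in log2 units (SE 0.09, adjusted p = 0.00531). Among 6 cell cycle genes high enough to test 0 were called.

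Cholesterol synthesis fell along most of its length. In this list 13 of 21 tested genes fell and 0 rose, where 1.51% of all genes tested fell. All 21 changes were below 0, and in 20 of 21 the later libraries lay wholly below those of 4 weeks, against 13.7% of all genes tested. The median log2 change was -0.74. Reads on these genes took 0.329% and 0.364% of the libraries at 4 weeks and 0.203% to 0.240% at 8 and 12 weeks. Hmgcs1, the first listed enzyme, labels 2 entries that are listed at 0 in every library, so it was not tested.

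Along the pathway, Mvd, which makes isopentenyl pyrophosphate, read 21.4 and 24.8 at 4 weeks, 10.5 and 14.2 at 8 weeks, then 13.1 and 11.3 at 12 weeks and fell by 0.86 in log2 units (SE 0.17, adjusted p = 0.0444), and Idi1 fell by 0.75. Of the other early enzymes Mvk (-0.54), Pmvk (-0.44), Fdps (-0.74) and Fdft1 (-0.37) were not called, with adjusted p from 0.0549 to 0.128. Sqle, which starts the sterol branch by oxidising squalene, read 38.3 and 43.6 at 4 weeks, 21.8 and 26.1 at 8 weeks, then 24.2 and 20.8 at 12 weeks and fell by 0.79 in log2 units (SE 0.10, adjusted p = 0.00786). Lss (mm9 chr10:75994333-76019884), which closes the ring to lanosterol, read 8.79 and 11.8 at 4 weeks, 4.44 and 5.4 at 8 weeks, then 3.97 and 4.16 at 12 weeks and fell by 1.03 in log2 units (SE 0.09, adjusted p = 0.00369). Every later Lss library was at or below 5.40, under the lower 4-week value of 8.79.

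Of the enzymes after lanosterol, Cyp51 read 79.1 and 90.1 at 4 weeks, 44 and 56.8 at 8 weeks, then 46.9 and 39.3 at 12 weeks and fell by 0.85 in log2 units (SE 0.11, adjusted p = 0.00833). Msmo1 fell by 0.78, Ebp by 0.75, Nsdhl by 0.67, Tm7sf2 by 0.62 and Sc5d by 0.61. Dhcr7, near the end of the pathway, read 26.2 and 24.4 at 4 weeks, 12.7 and 14.8 at 8 weeks, then 15.2 and 14 at 12 weeks and fell by 0.80 in log2 units (SE 0.09, adjusted p = 0.0055). The 8-week and 12-week libraries were level with each other and below those of 4 weeks. Hsd17b7 (-0.62, adjusted p = 0.084) was not called. The regulators of the list did not pass either: Insig1, which retains the sterol sensor, was at -0.22 and Srebf2, the factor that drives the pathway, at -0.15. Srebf2 read 41.9 and 39.1 at 4 weeks, 34.5 and 37.5 at 8 weeks, then 35.3 and 37.9 at 12 weeks. Aacs, which feeds ketone carbon into lipid synthesis and was singled out after its values were seen, read 16.3 and 20.3 at 4 weeks, 8.67 and 11.5 at 8 weeks, then 7.77 and 8.33 at 12 weeks and fell by 0.94 in log2 units (SE 0.11, adjusted p = 0.00611).

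Without the male 4-week library 3 of the 21 passed, with a median of -0.67, without the female 9 of 21, with a median of -0.64, and with wild-type libraries alone 1, with a median of -0.74. Lss was higher in the male than in the female 4-week library, at 11.8 against 8.79.

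**Figure D3:**
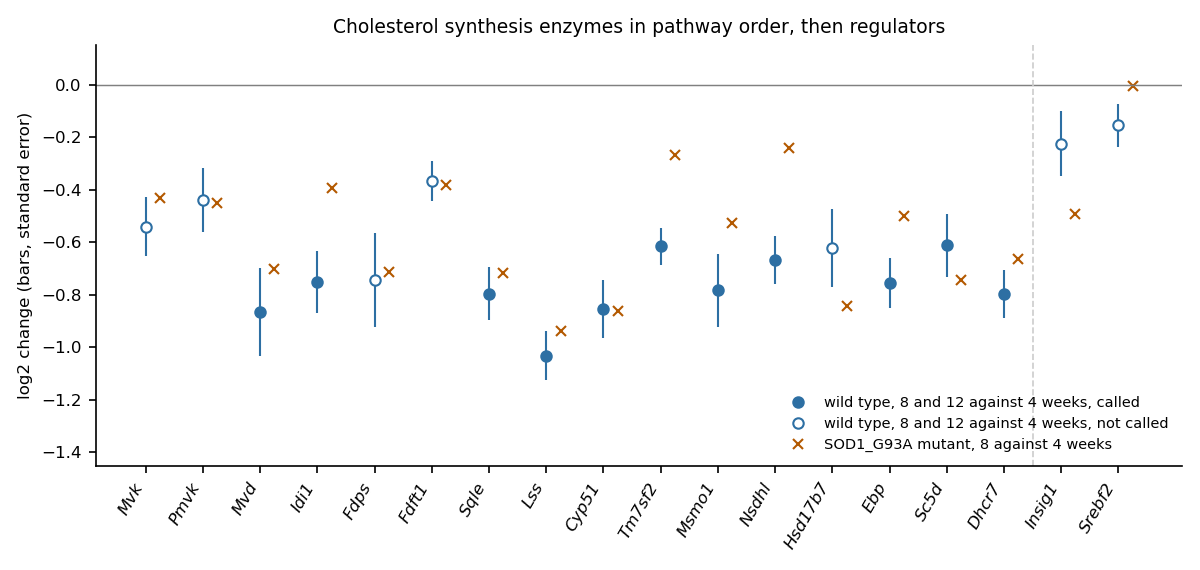
Log2 change (vertical axis) of 18 of the 21 tested cholesterol genes, with 16 enzymes in pathway order and 2 regulators after the dashed line, in wild-type cord at 8 and 12 against 4 weeks (circles, filled where called, bars of 1 standard error) and in mutant cord at 8 against 4 weeks (crosses). All circles lie below 0, from -1.03 for Lss to -0.15 for Srebf2.

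Since changes in this list shared 1 direction, the promoters were searched for 4 short motifs. RefSeq promoters on GRCm38.p6 were found for 16 of the 22 listed genes, with the 250 bases before the start searched on both strands. A gene counted as matched where any of its promoter windows held the letters. The letters CCAAT, the core bound by NF-Y, a factor known to act with SREBP at sterol promoters, were in 16 of 16 genes. Over all 27025 genes with a promoter the share was 37.5%. The 16 include Mvk, Pmvk, Hsd17b7, Insig1 and Srebf2, which were not called, and Hmgcs1, which was not tested. A CCAAT match thus did not set called genes of the list apart from the others. GGGCGG, the core bound by Sp1, was in 15 of 16 against 35.4%, and the E-box CACGTG in 4 of 16 against 6.86%. The sterol element TCACNCCAC was in 1 of 16, Hmgcs1, against 1.22%. In the myelin list, which fell as far, CCAAT was in 5 of 12 genes and GGGCGG in 3 of 12. Motifs were counted each on its own, and 1 window can hold several. A match is a description of the letters and not a site shown to be bound. The windows of 4 called enzymes are shown, those with the largest falls among the listed genes with 1 promoter entry each. They run from 5′ to 3′ on the strand of the gene, at chr10:76531355-76531604 (plus strand), chr8:122443423-122443672, chr5:4104698-4104947 and chr8:64733579-64733828 (minus strand). Each CCAAT, or ATTGG where it is read on the other strand, is in capitals.
Lss: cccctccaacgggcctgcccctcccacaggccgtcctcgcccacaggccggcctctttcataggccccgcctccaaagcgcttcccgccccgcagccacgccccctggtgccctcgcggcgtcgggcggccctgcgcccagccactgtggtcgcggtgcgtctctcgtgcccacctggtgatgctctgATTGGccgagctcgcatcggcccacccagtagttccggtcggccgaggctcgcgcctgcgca
Mvd: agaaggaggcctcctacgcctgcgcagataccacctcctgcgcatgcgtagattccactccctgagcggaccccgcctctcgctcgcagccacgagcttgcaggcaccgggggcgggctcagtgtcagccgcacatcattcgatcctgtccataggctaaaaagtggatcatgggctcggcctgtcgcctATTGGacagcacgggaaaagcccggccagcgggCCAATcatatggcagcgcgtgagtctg
Cyp51: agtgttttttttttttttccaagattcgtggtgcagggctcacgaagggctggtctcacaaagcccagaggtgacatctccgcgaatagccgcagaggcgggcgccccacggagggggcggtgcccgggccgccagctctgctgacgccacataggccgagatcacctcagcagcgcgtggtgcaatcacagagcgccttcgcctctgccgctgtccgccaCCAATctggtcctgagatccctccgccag
Msmo1: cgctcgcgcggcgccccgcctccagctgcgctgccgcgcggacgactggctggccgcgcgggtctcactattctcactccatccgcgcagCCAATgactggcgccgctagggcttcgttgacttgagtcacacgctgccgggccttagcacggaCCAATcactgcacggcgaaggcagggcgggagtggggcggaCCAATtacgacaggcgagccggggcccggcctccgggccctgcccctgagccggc
Lss held 1 match, 62 bases before the start, and Cyp51 held 1, 29 bases before it. Mvd held 2, at 60 and 27 bases, and Msmo1 held 3, at 160, 96 and 55 bases. The log2 change was -1.03 in Lss, -0.85 in Cyp51, -0.86 in Mvd and -0.78 in Msmo1.

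Basement membrane was the other structural list with several calls, as 3 of 8 genes fell and 0 rose (median -0.29), where 1.51% of all genes tested fell. Nid1 (mm9 chr13:13529869-13604543), the nidogen that links laminin to collagen IV, read 16 and 19.5 at 4 weeks, 6.65 and 7.42 at 8 weeks, then 5.78 and 4.92 at 12 weeks and fell by 1.39 in log2 units (SE 0.10, adjusted p = 0.00225). The later libraries lay between 4.92 and 7.42, below both of 4 weeks. Hspg2 (perlecan) read 1.94 and 1.87 at 4 weeks, 0.843 and 0.623 at 8 weeks, then 0.728 and 0.8 at 12 weeks and fell by 0.73, and the collagen Col4a1 fell by 0.50, while Col4a2 (-0.24) and the laminins Lama2 (0.04), Lamb2 (0.28) and Lamc1 (-0.33) were not called. Markers of endothelium, 10 of them tested, held 0 calls, 9 of 10 changes were below 0, and their summed level was 58.0 and 34.7 at 4 weeks and 29.4 to 45.0 later. Of 8 markers of pericytes and vascular smooth muscle 0 were called and 7 were below 0, and their sum was 42.8 and 34.49 at 4 weeks and 26.2 to 34.48 later. Both lists thus lay mostly on the same side as basement membrane, and their part in its fall was not tested. In the matrix list Bgn (biglycan) fell by 0.71, and 12 others were not called.

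Other genes that fell have mixed roles. Gsn, gelsolin, which severs actin filaments, read 208 and 249.9 at 4 weeks, 93.4 and 102 at 8 weeks, then 75.1 and 76.6 at 12 weeks and fell by 1.39 in log2 units (SE 0.10, adjusted p = 0.00225). Srd5a1, a steroid 5-alpha-reductase, read 13.8 and 12.2 at 4 weeks, 4.57 and 6.51 at 8 weeks, then 4.71 and 3.19 at 12 weeks and fell by 1.31 in log2 units (SE 0.17, adjusted p = 0.00769). Gamt, the last enzyme of creatine synthesis, read 27.4 and 23.9 at 4 weeks, 12.9 and 14.4 at 8 weeks, then 11.7 and 9.48 at 12 weeks and fell by 1.03 in log2 units (SE 0.11, adjusted p = 0.00531). In these genes the later libraries again did not reach either 4-week value. Rab7b, a small GTPase of late endosomes, fell by 1.06 from lower levels. The imprinted cell cycle inhibitor Cdkn1c read 27.9 and 30.6 at 4 weeks, 17.9 and 20.5 at 8 weeks, then 11.2 and 11.3 at 12 weeks and fell by 0.94 in log2 units (SE 0.14, adjusted p = 0.0135), and it was the 1 call among 15 imprinted genes tested. Dnmt3a, the enzyme that sets new DNA methylation, read 9.37 and 9.89 at 4 weeks, 5.54 and 5.18 at 8 weeks, then 4.67 and 5.28 at 12 weeks and fell by 0.79 in log2 units (SE 0.07, adjusted p = 0.00369), while Dnmt1, which maintains methylation, was at -0.01. Dnmt3a was close to level from 8 to 12 weeks.

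Genes of development outside the oligodendrocyte lists fell in small number, and Sox4, which is in the newly formed list, is given here too. Marcksl1, an actin-binding protein of growing cells, read 80.3 and 72.2 at 4 weeks, 51.9 and 57.2 at 8 weeks, then 32.3 and 37.7 at 12 weeks and fell by 0.79 in log2 units (SE 0.09, adjusted p = 0.00545), and it was the 1 call among 17 genes of immature neurons. Dcx (-0.24), which marks migrating neurons, was low and not called. Sox4, a factor of immature cells, is in the immature neuron list too but was not counted, as its symbol labels more than 1 entry. Both entries of Sox4 fell, by 0.48 and 0.65. They overlap on the genome, so their reads may be shared. Sema5a fell by 0.52, and the other 23 axon guidance genes tested were not called. Genes singled out after their values were seen were Sema4d, a semaphorin of oligodendrocytes, which fell by 0.90, Sema6a, by 0.62, Nfasc, a cell adhesion molecule of the node region, by 0.52, the growth factor Ptn by 0.81, the fatty acid binding protein Fabp7 of immature glia by 0.75, the receptor Erbb3 by 0.71 and the protease Plat by 0.86.

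Among genes that respond to glucocorticoids, 2 of 13 fell, against 1.51% of all genes tested: Nfkbia, the inhibitor of NF-kB, by 0.94 and the clock gene Per1 by 0.56. Per1 read 5.14 and 5.44 at 4 weeks, 3.23 and 3.98 at 8 weeks, then 3.03 and 2.94 at 12 weeks, and 5.2 and 5.48 at 17 weeks. The libraries of 17 weeks were thus level with those of 4 weeks. Sgk1 read 42.2 and 42 at 4 weeks, 9.03 and 14.7 at 8 weeks, then 16.5 and 8.87 at 12 weeks and was not called (-1.75, adjusted p = 0.106), with every later library below both of 4 weeks. The metallothioneins Mt1 and Mt2 of the same list were high in the male 4-week library, and their part in the list's median of -0.35 was not tested. Per1 was also the 1 call among 16 clock genes, and times of day of collection are not given in the sources used here.

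Rising genes were fewer and held no list with more than 1 call. C4b (mm9 chr17:34865328-34880843), a complement component made by glia, read 5.4 and 5.44 at 4 weeks, 23.4 and 14 at 8 weeks, then 17.5 and 23.3 at 12 weeks, and 37 and 11.6 at 17 weeks. Both 4-week libraries were nearly equal and the later ones spread over a wider range above them. C4b rose by 1.65 in log2 units (SE 0.30, adjusted p = 0.0344). Its near-identical copy on the same chromosome may share reads with it, so the value of this gene alone is uncertain. Of the other complement genes C1qa (0.31), C1qb (0.51), C1qc (0.45) and C3 (0.52) were not called, and Masp1 fell by 0.51. Microglial markers, 13 of which were tested, held 0 calls, with a summed level of 131 and 148 at 4 weeks and 143 to 159 later.

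Il33 (mm9 chr19:29999604-30035195), a cytokine kept in the nuclei of glia and released on damage, read 14.6 and 14.9 at 4 weeks, 33.5 and 27.2 at 8 weeks, then 41.6 and 32 at 12 weeks and rose by 1.12 in log2 units (SE 0.12, adjusted p = 0.00539). Serpind1, a protease inhibitor of the clotting system (heparin cofactor II), read 2.87 and 2.73 at 4 weeks, 5.7 and 7.65 at 8 weeks, then 7.21 and 7.32 at 12 weeks and rose by 1.06 in log2 units (SE 0.11, adjusted p = 0.0053). Etnppl, an enzyme of phosphoethanolamine breakdown that is high in astrocytes, read 3.94 and 4.49 at 4 weeks, 10.7 and 11.2 at 8 weeks, then 6.62 and 6.88 at 12 weeks and rose by 0.88 in log2 units (SE 0.09, adjusted p = 0.00423). In all 3 the later libraries were above both of 4 weeks, and Etnppl was higher at 8 than at 12 weeks. Fth1, the heavy chain of ferritin, which stores iron, read 4115 and 3301 at 4 weeks, 6224 and 7256 at 8 weeks, then 6146 and 5458 at 12 weeks and rose by 0.76 in log2 units (SE 0.13, adjusted p = 0.0257). Ftl1, the light chain, rose as well, by 0.87, but from values of 0.722 to 4.39 that may hold only part of its reads, since both ferritin genes have many processed copies.

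Further rising genes were Fxyd1 (phospholemman), a regulator of the sodium pump, at 28.8 and 24.1 at 4 weeks, 70.0 and 47.6 at 8 weeks, then 38.5 and 45 at 12 weeks and up by 0.87, and Cbx7, a Polycomb protein, up by 0.72. Zfp36l2, which destabilises messenger RNA, rose by 0.69, the inhibitor of differentiation Id3 by 0.59, the stem cell and glial factor Sox2 by 0.58 and Mettl7a1, a methyltransferase-like protein, by 0.58. Zinc finger genes Zfp771 and Zfp511 rose by 1.03 and 0.53. Maob, monoamine oxidase B, an enzyme of astrocytes singled out after its values were seen, read 5.4 and 5.97 at 4 weeks, 8.5 and 9.6 at 8 weeks, then 7.91 and 7.47 at 12 weeks and rose by 0.48 in log2 units (SE 0.08, adjusted p = 0.0202). Scd3, a fatty acid desaturase, rose by 0.74 from low values.

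The largest fold among protein-coding genes was that of the ribosomal protein gene Rps19, which was low at 4 weeks and read 0.333 and 0.535 at 4 weeks, 7.66 and 6.24 at 8 weeks, then 3.14 and 6.73 at 12 weeks. It rose by 2.23 in log2 units (SE 0.36, adjusted p = 0.0239). Mutant libraries of 4 weeks read 9.39 and 9.92, above every wild-type library, so the low level at 4 weeks was not shared by mutants of that age. Ribosomal protein genes have many processed copies, whose reads cannot be assigned with certainty. The predicted gene Gm9817 rose by 1.04. Of the 63 rising genes 14 were shorter than 1000 bases, against 12 of the 218 that fell and 1582 of the 14459 tested.

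**Figure D4:**
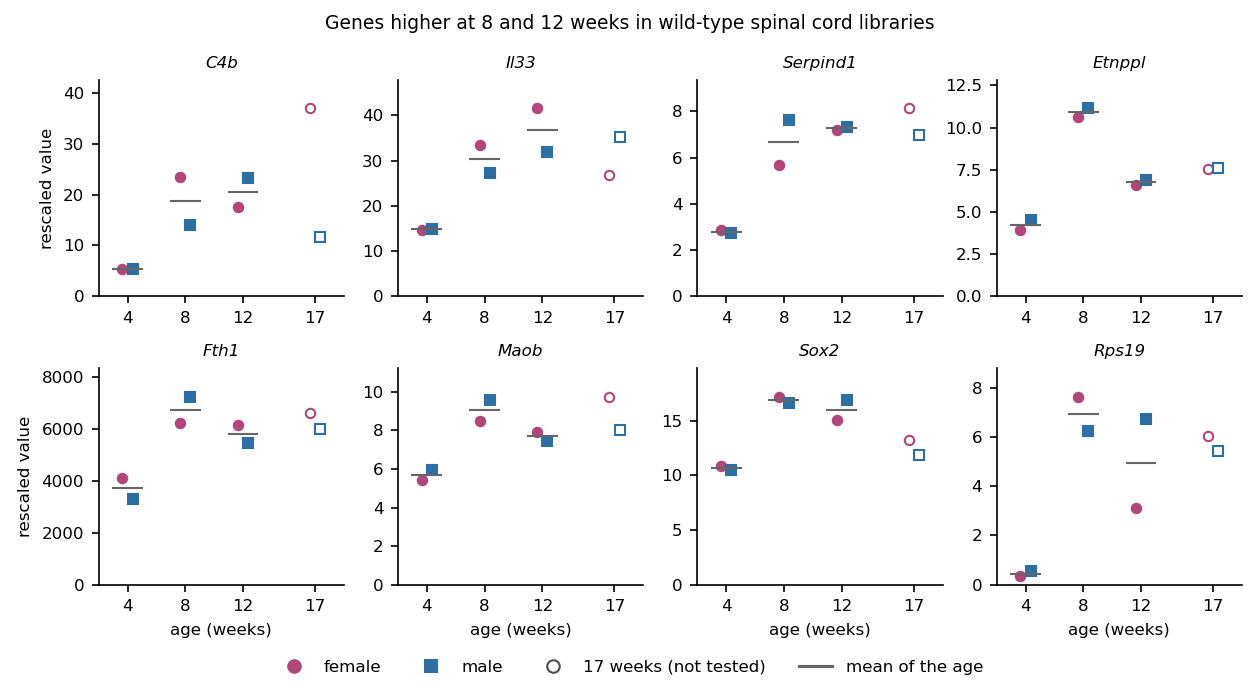
Rescaled value (vertical axis, from 0) by age in weeks (horizontal axis) for 8 genes called higher at 8 and 12 weeks in wild-type spinal cord, with 1 point a library (circle female, square male, open at 17 weeks, not tested) and a bar at the mean of each age. Both 4-week libraries lie below all 4 later ones in each panel, and Etnppl is lower at 12 than at 8 weeks.

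No gene was called in the lists of mature neuronal genes that follow. The synaptic list had 0 of 22 called (median 0.03), glutamate receptor subunits 0 of 18 (0.00), GABA and glycine receptor subunits 0 of 17 (0.11), voltage-gated sodium and potassium channels 0 of 20 (0.08), and neurofilaments and axon cytoskeleton 0 of 18 (-0.02). Snap25, a protein of vesicle release, read 354 and 345 at 4 weeks, 359 and 377 at 8 weeks, then 488 and 456 at 12 weeks. It did not pass in this comparison (0.25, adjusted p = 0.126). For 12 against 4 weeks alone Snap25 was called higher (0.43, limma, adjusted p = 0.0416), and for 8 against 4 weeks it was not (0.08, adjusted p = 0.699). Motor neuron markers held 0 calls among 8, with a median of 0.18, and their sum was 108 and 110.4 at 4 weeks and 112 to 154 later. The neuronal marker sum was 2253 and 2442 at 4 weeks and 2196 to 2665 later, so that the groups overlapped.

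Energy and support lists were likewise without calls. Nuclear subunits of the respiratory chain had 0 of 20 called (median -0.01), glycolysis and lactate genes 0 of 21 (0.07), and the glutamate and potassium handling genes of astrocytes 0 of 12 (0.01). Astrocyte markers held 0 calls among 12. Gfap, their intermediate filament, read 408 and 417 at 4 weeks, 498 and 494 at 8 weeks, then 378 and 351 at 12 weeks, higher at 8 than at 12 weeks. Hox genes, which record position along the cord, had 0 of 29 called, with a median of 0.15. Heat shock proteins had 0 of 14 called (0.10), insulin-like growth factors and their partners 0 of 13 (0.05), immediate early genes 0 of 12 (0.03), thyroid hormone targets 0 of 8 (-0.05), perineuronal net genes 0 of 9 (-0.05) and interferon-induced genes 0 of 14 (-0.02). Antigen presentation genes had 0 of 9 called with a median of -0.30, and their sum was highest in the male 4-week library at 164, against 85.4 to 136 in the other 5. A p above the threshold does not show that these genes were constant, since with 2 libraries an age only changes larger than their spread could pass. Of all genes, 2466 had an unadjusted p under 0.05.

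The sum of the 8 oligodendrocyte markers was 8766 and 9128 at 4 weeks, 5469 and 6256 at 8 weeks, 4344 and 4053 at 12 weeks, and 4200.1 and 3993 at 17 weeks. All 8 were called lower, and all 8 are also in the myelin list, so they add no further evidence. Of the tested markers of meningeal fibroblasts (7), ependyma (6), red blood cells (5), bone and cartilage (4), dorsal root ganglion neurons (3), choroid plexus (1) and blood leukocytes (1), 0 were called. Skeletal muscle markers summed to at most 2.56 and fat markers to at most 0.254 in the 6 libraries. Blood leukocyte markers summed to 8.61 in the male 4-week library and to 1.49 or less in the other 5. Their part in the results was not tested.

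Each later age was also set against 4 weeks alone. Between 8 and 4 weeks 36 genes rose and 75 fell, or 0.768% of those tested together. Between 12 and 4 weeks 36 rose and 206 fell (0.249% and 1.42% of those tested, 1.67% together). Between 12 and 8 weeks 1 gene passed, Npsr1, which was lower (0.00692%), while 1507 had an unadjusted p under 0.05. These comparisons share libraries, so their values stand side by side and say nothing of one another. The median of the myelin list was -0.63 from 4 to 8 weeks and -0.25 from 8 to 12 weeks, and that of the cholesterol list -0.67 and -0.04. Cdkn1c was at -0.72, Marcksl1 at -0.63 and Bmp4 at -0.68 from 8 to 12 weeks, and Opalin at 0.15, with no call among them. The 8-week count was 198 without the female 4-week library, 2 without the male, 4 and 0 without the female or male of 8 weeks, and 61 without either library of 12 weeks. With wild-type libraries alone it was 0, with 14 for the 12-week comparison, whose count was 54 without the male 4-week library and 82 and 25 without the female or male of 12 weeks. Mal read 156 and 162 at 17 weeks, and C4b 37 and 11.6 at 17 weeks, the last with its libraries far apart.

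Mutant cords repeated the step from 4 to 8 weeks in libraries that the wild-type comparison did not use, though both were fitted in 1 model with a common estimate of spread. In them 549 genes fell (3.8% of those tested) and 340 rose (2.35%), together 6.15%. Of the 218 genes that fell in wild type, 208 had a change below 0 in mutants, as had 51.3% of all genes, and 131 were called lower. Of the 63 that rose, 45 were above 0, as were 48.6% of all genes, and 22 were called higher. Another 2 of the 218 and 2 of the 63 were called in the opposite direction. Across all 14459 genes, which are not independent replicates, Pearson's r between the wild-type and mutant steps from 4 to 8 weeks was 0.077 and Spearman's rho 0.204. The mutant counts were 173 and 6 without the female or male mutant of 4 weeks, and 101 and 1 without those of 8 weeks.

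In the myelin list 13 of 18 fell in mutants with a median of -0.62, where 3.8% of all genes tested fell. In the cholesterol list 11 of 21 fell with a median of -0.53, and in the newly formed list 5 of 11 with a median of -0.48. Mal read 543 and 561 at 4 weeks and 201 and 227 at 8 weeks in mutants (-1.36, adjusted p = 0.00527). In mutants, too, both 8-week libraries lay below both of 4 weeks. Gpr17 read 30.4 and 31.3 at 4 weeks and 12.9 and 11 at 8 weeks in mutants, Lss 11.1 and 11.4 at 4 weeks and 5.29 and 5.53 at 8 weeks and Nid1 15.9 and 19.3 at 4 weeks and 7.85 and 7.82 at 8 weeks. Dnmt3a fell there as well (-0.87, adjusted p = 0.00527). Of rising genes, C4b read 11 and 3.88 at 4 weeks and 29.8 and 22.6 at 8 weeks, Il33 9.96 and 12.3 at 4 weeks and 25.2 and 23.9 at 8 weeks and Serpind1 1.12 and 1.08 at 4 weeks and 6.23 and 6.32 at 8 weeks, and all 3 were called higher. Etnppl, Fth1, Cbx7, Zfp771 and Mettl7a1 were called higher in mutants as well. Fxyd1 (-0.007), Id3 (-0.04), Zfp511 (-0.20) and Zfp36l2 (0.12) were not called there. The Schwann marker sum of the mutant 4-week libraries was 92.6 and 109.6, against 200.5 in the female wild-type library, and their Ndufa4 read 189 and 301, against 998 in the male.

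**Figure D5:**
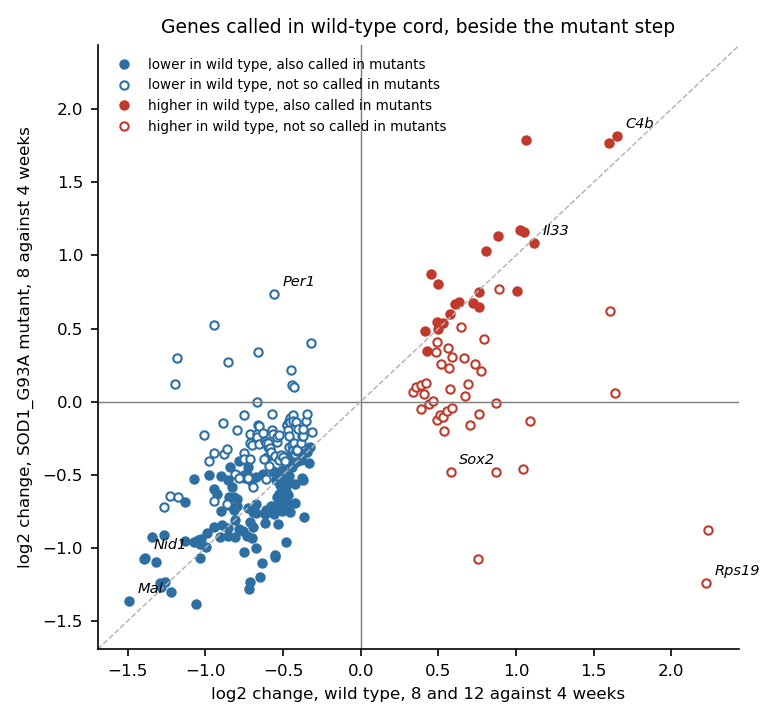
Log2 change in wild-type cord at 8 and 12 against 4 weeks (horizontal axis) and in mutant cord at 8 against 4 weeks (vertical axis) for the 281 genes called in wild type, filled where called in the same direction in mutants, with the line of equal change dashed. Falling genes (blue) lie mostly below 0 on both axes, 208 of 218, while rising genes (red) are spread over both signs, 45 of 63 above 0.

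The step from 4 to 8 weeks differed between genotypes in 8 genes (4 larger and 4 smaller in mutants, 0.0277% of those tested each way and 0.0553% together), of which 3 were protein coding. Sox2 rose in wild type, at 10.9 and 10.5 at 4 weeks, 17.2 and 16.6 at 8 weeks, then 15.1 and 16.9 at 12 weeks, and read 13.3 and 13.5 at 4 weeks and 9.33 and 9.28 at 8 weeks in mutants, where it fell by 0.48. The difference was -1.10 (adjusted p = 0.0251). Arrdc2, an arrestin-domain protein, and Ost4, a small subunit of the oligosaccharide transferase, had differences of 1.96 and 1.97. The other five were 2 processed pseudogenes, 2 antisense entries and 1 small nucleolar RNA. Per1 changed by 0.74 in mutants (adjusted p = 0.012) and by -0.46 in wild type over the same step (adjusted p = 0.101), and the difference did not pass (adjusted p = 0.0503), and Nfkbia read 12.9 and 13.5 at 4 weeks and 16.4 and 23.1 at 8 weeks there. Rps19 read 9.39 and 9.92 at 4 weeks and 3.52 and 3.49 at 8 weeks in mutants (-1.24). Gm9817 read 9.39 and 6.24 at 4 weeks and 4.81 and 5.84 at 8 weeks there (-0.46), with 0 of these 2 called. In the glucocorticoid-responsive list 4 of 13 genes were called higher in mutants over this step and 0 lower. Of all genes tested, 2.35% were called higher and 3.8% lower in mutants. In wild type neither Nfkbia (-1.07, adjusted p = 0.0723) nor Per1 passed over the same step, and 0 of the 13 genes had a called difference between genotypes. The count of 8 ran from 0 to 212 when single libraries were left out, with 212 without the female and 15 without the male wild-type library of 4 weeks.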

How the data were processed

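Spinal cord total RNA was sequenced in 16 libraries, and reads were aligned with Bowtie to mm9, per the submitters' processing notes (version not given in the sources used here). The deposited values are reads per gene length and library total, on the scale of RPKM, from which the authors' table has some reads subtracted in part of the genes by a step not given in the sources used here. Of 36814 entries 898 fell below 0 in some library and were set to 0. Because of that subtraction, count models were not used.

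Values were rescaled by median-of-ratios factors. A linear model was fitted with limma 3.58.1 (R 4.3.3, empirical Bayes with a mean trend) to log2(value + 1) over the 12 wild-type and mutant libraries of 4, 8 and 12 weeks, with genotype-by-age means and sex, for the 14459 genes that reached 1 in 2 or more libraries. P-values were Benjamini-Hochberg adjusted over all of them, with 0.05 as threshold. Residual degrees of freedom were 5, and the script was tested on simulated data. The squared difference between same-age wild-type libraries was 6.93 to 8.54 times the variance of counting noise in the median gene at 4 to 12 weeks. As a mean over genes it was 15.3 to 29.5 times. Genes with few reads were left out of this, and each pair was 1 female and 1 male, so differences by sex are included.

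Named genes were the 15 protein-coding genes with the largest change each way (a mean of 5 or more in the higher group, without overlap), up to 4 called members a list, and 2 where none was called. Other list members and genes so marked were chosen after their values were seen. Some genes that the rule names are not reported here, but stay in the counts. The comparison and gene lists were chosen with earlier results of these data known. Alternatives changed scaling, pseudocount, filter, libraries, the sex term and the model (voom on recovered reads, of which 100% of values came out whole within 0.01). Library kits of single samples are not given in the sources used here.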

Additional observations from a re-analysis of the deposited data

Results flagged for a closer look

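Sox2 moved in opposite directions in the cords of each genotype between 4 and 8 weeks. It read 10.9 and 10.5 at 4 weeks, 17.2 and 16.6 at 8 weeks, then 15.1 and 16.9 at 12 weeks in wild type and 13.3 and 13.5 at 4 weeks and 9.33 and 9.28 at 8 weeks in mutants. The mutant step minus the wild-type step was -1.101 on the log2 scale (limma, SE 0.11, adjusted p = 0.0251), with both libraries of each genotype showing its direction. Sox2, like every other gene, lost this call without the male wild-type library of 8 weeks, either wild-type library of 12 weeks, the female mutant of 4 weeks or either mutant of 8 weeks, where 0 genes were called.

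Igfbp3, a carrier of insulin-like growth factors, had 1 library apart from the other 3 among those of 8 and 12 weeks, at 2.73 and 2.29 at 4 weeks, 1.5 and 1.52 at 8 weeks, then 1.47 and 1.78 at 12 weeks. The gap between the male of 12 weeks and its nearest neighbour was 0.8419 of the whole range, above Dixon's critical value for 4 samples. Of 81 groups examined in this way 1 stood out, and chance gives about 1 in 20.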

How the results depend on the processing

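The count of calls depended more on the libraries used than on scaling or pseudocount. For wild type at 8 and 12 against 4 weeks, 63 genes rose and 218 fell. Without a filter on low values 26 rose and 128 fell, and with wild-type libraries alone 5 and 21. Values as deposited gave 133 that fell and lowered their share of calls from 77.6% to 59.4%, with the median of all genes at 0.06. Leaving out single libraries gave 6 to 75 that rose and 23 to 203 that fell. Of 1279 values of the 81 named genes under these alternatives, 0 changed sign, 185 lost the call and 10 gained it. For 8 against 4 weeks (111 calls) there were 18 without a filter, 0 with wild-type libraries alone, 239 with voom on recovered reads, and 0 to 198 without single libraries. For 12 against 4 weeks (242) there were 158 without a filter, 14 with wild-type libraries alone, and 25 to 232 without single libraries. For 12 against 8 weeks (1) there were 2 as deposited, 2 with upper-quartile scaling, 2 with a pseudocount of 0.5, 0 at a minimum value of 5, 0 with wild-type libraries alone, 0 with all 16 libraries, 7 with voom, and 0 to 13 without single libraries. For mutants (889) there were 404 without a filter, 518 with all 16 libraries, and 1 to 173 without single mutant libraries. For the difference between genotypes (8) there were 16 with upper-quartile scaling, 1 without a filter, 18 with all 16 libraries, 14 without the sex term, 51 with voom, and 0 to 212 without single libraries. The cause was not tested, and kept signs add little, since these alternatives reuse the same libraries. Where an age was left with 1 library, that library was assumed to vary like the others. No paired analysis was possible because the spinal cord labels give sex and no replicate number, and sex was already a term. Spread between same-age wild-type libraries exceeded counting noise in the median gene, with genes of few reads left out and differences by sex included. The effect of depth on the calls was not tested.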
